A study of Mus with 14 samples.

Results

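Mature B cells were found in bone marrow samples that had been sorted for immature, Kit-positive cells. They were chosen from 70038 kept cells of 14 mice by their raw counts of unique molecular identifiers (UMIs). A cell was a member when it held at least 1 UMI of Ms4a1 (CD20), at least 1 of Ighd (the IgD heavy chain) and at least 5 of Cd74 (the class II invariant chain), and 0 of Igll1 and Dntt, which are made by B-cell precursors. A cell was kept with 1000 UMIs or more, 500 genes or more and a mitochondrial share below 10%. The rule found 548 cells, 0.782% of all kept cells.

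Mature naive B cells leave the marrow, circulate through blood, spleen and lymph nodes, and re-enter the marrow as recirculating cells. They carry IgM and IgD with the signalling chains Cd79a and Cd79b, and they present antigen on MHC class II molecules. They normally carry the B220 lineage marker and no Kit, whereas their precursors use the surrogate light chain (Igll1, Vpreb1, Vpreb2), terminal transferase (Dntt) and the recombinase genes Rag1 and Rag2.

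The study follows Dnmt3a-mutant blood formation, a model of clonal haematopoiesis, with and without either receptor of tumour necrosis factor. Its groups are named by genotype: MxCre with 3 mice, Dnmt3a with 4 mice, Dnmt3a;Tnfr1KO with 3 mice, and Dnmt3a;Tnfr2KO, which had 4 mice. Tnfr1 is encoded by Tnfrsf1a and Tnfr2 by Tnfrsf1b. The labels do not give the Dnmt3a allele. All groups share the same history: CD45.2+ donor marrow was mixed with CD45.1+ competitor marrow, grown in aged irradiated CD45.1+ hosts that received 1 injection of poly(I:C), which switches on the interferon-driven Mx promoter of the Cre, and then transplanted again into aged irradiated mice. These were killed at 20 weeks and donor cells that were lineage-negative and Kit-positive were sorted. Mx-driven Cre is not limited to B cells, and the labels do not say whether mice of a group received marrow from 1 primary host, so the p-values measure only the spread between these mice. Each mouse is named by its group and replicate number.

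Library totals ran from 62416022 to 162869740 UMIs and 1955 to 7745 cells were kept per mouse. Dnmt3a mouse 1 kept 26.9% of its barcodes, and no other library fell below 66.7%. Without that mouse, Dnmt3a was 0.172 percentage points above MxCre in the share given next, and Dnmt3a;Tnfr2KO was at -0.618 points against Dnmt3a. Pairs of libraries shared 0.0348% to 0.358% of the kept barcodes of the smaller one. No mature B cell shared a barcode with a mature B cell of another library, and 14 of them shared one with some other kept cell. The targeted genes gave too few UMIs to check the labels in B cells, where Dnmt3a, Tnfrsf1a and Tnfrsf1b had a UMI in 6.204%, 4.197% and 3.65% of them.

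Mature B cells were fewest in the Dnmt3a;Tnfr2KO mice. There, mice 1 and 2 held 3 of 7745 cells (0.0387%) and 4 of 5903 (0.0678%), and mice 3 and 4 held 0 of 6429 and 0 of 6811, which allows shares of up to 0.0467% and 0.0440% when 3 cells are taken as the limit of a count of 0 (0.0574% and 0.0541% as the upper bounds of exact two-sided 95% binomial intervals). In MxCre the mice held 15 (0.243%), 12 (0.417%) and 35 (0.759%). In Dnmt3a they held 8 (0.409%), 2 (0.0726%), 20 (0.348%) and 86 (1.51%). The Dnmt3a;Tnfr1KO mice were the most spread, with 6 (0.0925%), 284 (7.69%) and 73 (2.30%). Mouse 2 of that group alone supplied 51.8% of all mature B cells. Each Dnmt3a;Tnfr2KO mouse lay below every mouse of the other 3 groups, but by little for Dnmt3a mouse 2 and Dnmt3a;Tnfr1KO mouse 1, whose exact 95% binomial intervals (0.00879% to 0.262% and 0.0340% to 0.201%) overlapped those of Dnmt3a;Tnfr2KO mouse 2 (0.0185% to 0.173%). These intervals and limits cover counting error only. The order of the mice holds for cells that met the Ighd condition, and cells that failed it alone are counted below.

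MxCre averaged 0.473% ± 0.262 (SD, n = 3) and Dnmt3a 0.586% ± 0.636 (SD, n = 4). Dnmt3a;Tnfr1KO averaged 3.36% ± 3.91 (SD, n = 3) and Dnmt3a;Tnfr2KO 0.0266% ± 0.0329 (SD, n = 4). Dnmt3a;Tnfr2KO was 0.559 percentage points below Dnmt3a, 3.34 below Dnmt3a;Tnfr1KO and 0.446 below MxCre. Each of these gave an exact two-sided permutation p of 0.0286, the smallest that mice in these numbers can give, and 0.0571 after Benjamini-Hochberg adjustment over the 6 comparisons, so none passed 0.05. Tested as cell numbers with edgeR's quasi-likelihood test, the same 3 differences were -4.36, -6.86 and -4.04 on the log2 scale and passed, with Benjamini-Hochberg adjusted p of 0.0363, 0.00886 and 0.0392. That fit held only mature B cells, B-cell precursors, T cells and all remaining kept cells, so its estimate of spread rests on few rows. Dnmt3a differed from MxCre by 0.113 percentage points (exact permutation p 0.914, adjusted 0.914). Dnmt3a;Tnfr1KO was 2.78 points above Dnmt3a (exact permutation p 0.143, adjusted 0.214) and 2.89 above MxCre (exact permutation p 0.400, adjusted 0.480, smallest possible 0.100), and the 2 values were 0.611 and 0.724 points without its mouse 2, and 4.41 and 4.53 points without its mouse 1. Without Dnmt3a mouse 4, Dnmt3a;Tnfr2KO was at -0.250 points against Dnmt3a, and Dnmt3a at -0.196 against MxCre. Without Dnmt3a;Tnfr1KO mouse 2, Dnmt3a;Tnfr2KO was at -1.17 points against Dnmt3a;Tnfr1KO.

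T cells, also lineage-positive and normally outside the sort, were counted in the same libraries as kept cells with at least 3 of the 6 genes Cd3e, Cd3d, Cd3g, Trac, Trbc2 and Lck. They numbered 6, 4 and 16 in MxCre, 0, 1, 5 and 91 in Dnmt3a, 5, 9 and 14 in Dnmt3a;Tnfr1KO and 3, 2, 2 and 3 in Dnmt3a;Tnfr2KO. Their mean share was 0.0369% ± 0.00569 (SD, n = 4) in Dnmt3a;Tnfr2KO, the lowest of the groups, against 0.194% ± 0.134 in MxCre, 0.431% ± 0.781 in Dnmt3a and 0.254% ± 0.182 in Dnmt3a;Tnfr1KO. How far the purity of the sort takes part in the shares of mature B cells was not tested.

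**Figure D1:**
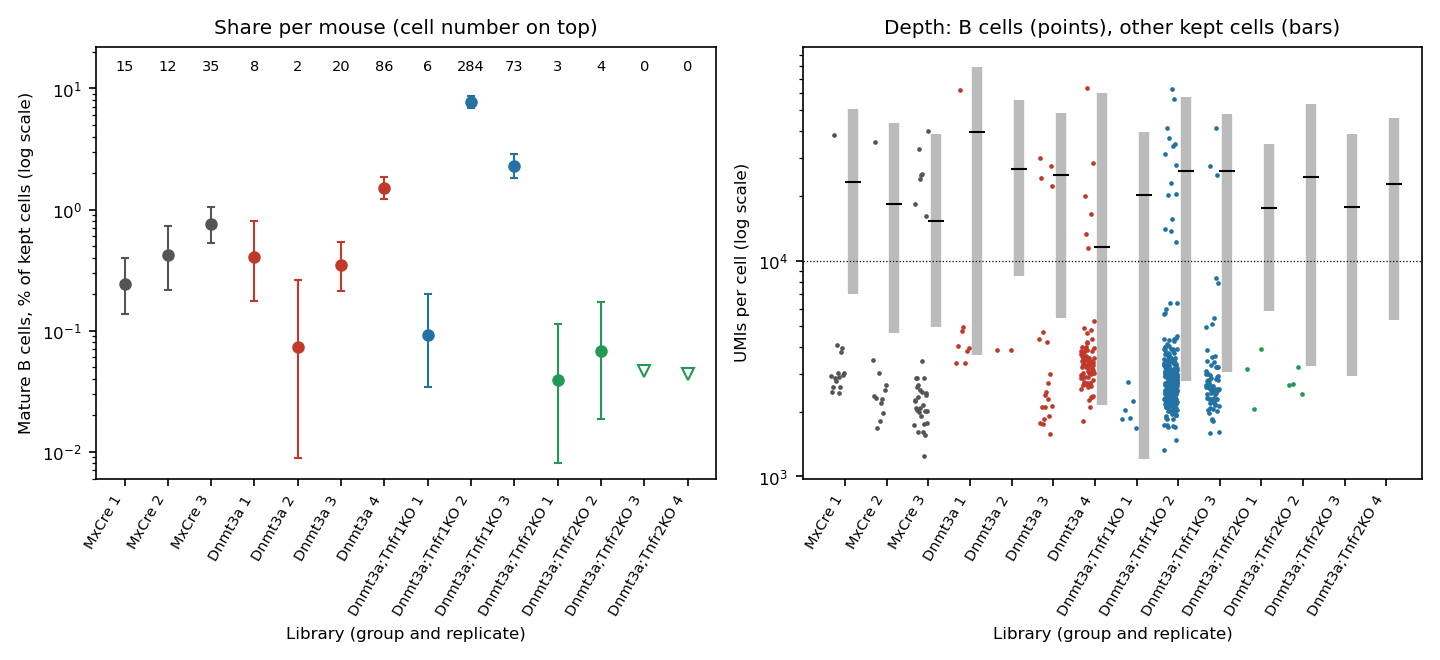
Left, mature B cells as a percent of kept cells (log scale) in each of the 14 libraries, with exact 95% binomial intervals; open triangles mark the limit that 0 cells allow. The Dnmt3a;Tnfr2KO mice sit lowest, at 0.0678% or less. Right, UMIs per mature B cell (points, log scale) beside the other kept cells of the library (bar from the 5th to the 95th percentile, line at the median); the dotted line marks 10000 UMIs and most mature B cells lie far below it.

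Mature B cells yielded few UMIs beside the progenitors around them. Their median depth was 2759 UMIs and 1106 genes per cell, and library medians ran from 1949 to 3988 UMIs, while medians of all kept cells ran from 11275 to 39561. A separate 38 of the 548 held more than 10000 UMIs, with a median of 26460 against 2697 in the other 510. The deep cells had no more B-cell UMIs than the shallow ones: the medians were 32.5 and 40.0 for Cd74, 3 and 3 for Ms4a1, 7 and 8 for Ighm and 3 and 3 for Ighd. A UMI of Mpo, myeloperoxidase of granulocyte progenitors, was present in 76.3% of the deep cells and 19.4% of the shallow ones, and in 50% and 7.45% after each cell was thinned to 1000 UMIs. Of the 548, 19 were called doublets by their similarity to simulated pairs of cells, and all 19 were among the 38. The called doublets were kept in the main counts. In the 7 libraries with at least 10 mature B cells the deep cells held 32.1% to 74.7% of all UMIs of these cells, so that sums over cells carry much from them. For that reason levels are given below per cell: each cell's UMIs of a gene per 1000000 of its UMIs (CPM), averaged over the cells of a library. These 7 libraries (MxCre 1, 2 and 3, Dnmt3a 3 and 4, Dnmt3a;Tnfr1KO 2 and 3) hold 525 of the cells, and means ± SD are over them.

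Cells just outside the rule were counted once, as a description. With Ighd at 0 and all else met there were 239 cells, of which 97.9% had Cd79a, and with Ms4a1 at 0 there were 94. Only 2 cells failed by Cd74 alone, 4 by Igll1 and 5 by Dntt. Just inside, 133 members had a single Ighd UMI, 109 a single Ms4a1 UMI, and 6 had 5 to 9 of Cd74. Of the 239 cells without Ighd 218 had Ighm, the IgM heavy chain. Their summed UMIs held Igha, the IgA heavy chain, at 8403 CPM, a sum that a few cells can carry. By mouse, the cells that failed only by Ighd numbered 6, 2, 3 and 4 in Dnmt3a;Tnfr2KO, beside 3, 4, 0 and 0 members. Dnmt3a mouse 2 had 1 beside 2 members, and Dnmt3a;Tnfr1KO mouse 1 had 15 beside 6. Counted with the members, they would put Dnmt3a;Tnfr2KO mouse 1 (7745 kept cells) above Dnmt3a mouse 2 (2756 kept cells). In the Dnmt3a;Tnfr2KO mice 5 of 6, 2 of 2, 1 of 3 and 3 of 4 of them had Cd79a, as did the 1 of Dnmt3a mouse 2. Their median depths in the Dnmt3a;Tnfr2KO mice were 12141, 3692.5, 8380 and 9444.5 UMIs. With only the cells holding Cd79a counted, Dnmt3a;Tnfr2KO mouse 1 would lie just below Dnmt3a mouse 2, so that change of order rests on a cell without Cd79a.

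The 25 genes with the highest ratio of mature B cells to other kept cells held 3 genes of the rule, whose place it fixed, and many other B-cell genes. The list began with Ly6d, Cd74, Ms4a1, H2-Aa, Ighd and H2-Eb1, and it went on with Iglc3, Fcmr (the IgM Fc receptor), Iglc1, Ltb (lymphotoxin beta), Iglc2, H2-DMb2, Klf2, H2-Ab1, Cd79a, Bank1, Cd79b, Fcer2a (CD23), Fcrla, H2-Ob and Cd55. Of the 5 markers of the label Ly6d and H2-Aa were not used by the rule, and both were among the first. Ly6d averaged 2869.5 CPM ± 714 (SD, n = 7) against 55.9 in the other kept cells, and H2-Aa 4135 CPM ± 1330 against 98.2. As the cells were chosen by their expression, these ratios are a description with no test.

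The antigen receptor was complete at the transcript level. Cd79a was present in 100% of cells at 3688 CPM ± 515 and Cd79b in 98.5% at 2321 CPM ± 398, while granulocyte progenitors of the same libraries (at least 5 UMIs each of Elane and Mpo) had 1.98 and 34.9 CPM. The coreceptor gene Cd22 and the adaptor Bank1 had UMIs in 40.5% and 72.4% of cells. After thinning every cell to 1000 UMIs, 13 of the 18 genes of receptor signalling were found in at least 10% of mature B cells. Of the 18, 17 were found more often than in the granulocyte progenitors (Cd79a 92.3% against 0.167%). The progenitor share of cells with a UMI stands for free RNA only for genes that those cells do not make. Precursors of the B lineage were counted as kept cells with Cd79a, with Igll1 or Dntt and without Ighd. They had Cd79a at 2359 CPM and Cd22 at 10.47 CPM, where the libraries of mature B cells had Cd22 at 145 to 258 CPM. Precursor levels here and below are means of the 4 libraries with at least 20 precursors, Dnmt3a mice 1, 3 and 4 and Dnmt3a;Tnfr1KO mouse 2. No MxCre library is among them, so the contrasts with mature B cells also differ in group.

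Class II genes were the other large block. H2-Aa, H2-Ab1 and H2-Eb1 were found in 97.4%, 98.4% and 96.5% of cells, at 4135, 3187 and 3158 CPM, against 22.5, 119 and 6.23 CPM in the precursors. The peptide-loading genes H2-DMa, H2-DMb2, H2-Oa and H2-Ob and their regulator Ciita followed, with Ciita at 44.2% of cells. All 10 class II genes were in at least 10% of thinned cells.

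Of the 20 B-cell transcription factors 14 reached 10% of thinned cells. Ebf1, needed to become a B cell, was at 74.8% and Klf2, which keeps lymphocytes quiescent and recirculating, at 65.9%. Mef2c stood at 60.2% and Pax5, the B-lineage commitment factor, at 25.9%. Ebf1 ran higher in the precursors (3237 CPM), whereas Klf2 was at 120 CPM there against 1432 CPM ± 334 in mature B cells. Of the migration genes, a list drawn up for homing and adhesion, 8 of 14 reached 10%. Among these 8 were Cd37, Cd55, S1pr1 (the receptor for leaving tissue), Itga4, Gpr183, S1pr4 and Itgb7. After thinning, 11 of the 14 were found more often than in granulocyte progenitors. Ccr7 and Cxcr5, receptors that lead cells into lymphoid tissue, were at 8.94% and 5.29%.

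Receptors of the tumour necrosis factor family were led by those for the survival factor BAFF. Tnfrsf13c (BAFF receptor) was found in 53.8% of cells and Tnfrsf13b (TACI) in 42.0%, and the ligand gene Ltb in 91.8%. Only these 3 of 15 genes reached 10% of thinned cells. Cd40 had a UMI in 18.8% of cells, Tnf in 0.730%, and Tnfrsf17 (the plasma-cell receptor BCMA) in none, where 0 UMIs among those of all 548 cells allow up to 1.17 CPM.

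Genes of several other B-cell states were rarely seen. The rule asked for Ighd and for 0 Igll1 and Dntt, so low precursor and class-switched genes were partly set by the selection. B cells of any state without an Ighd UMI were left out. Among 8 precursor genes Vpreb2 and Rag2 had no UMI, and Vpreb1, Il7r and Rag1 had UMIs in under 1% of cells, against 2788, 406 and 240 CPM in the precursors. Jchain and Tnfrsf17 of the plasma-cell list, Cd5 of the B1 list and Rgs13 and Gcsam of the germinal-centre list had none. None of the 8 B1, 7 age-associated, 7 germinal-centre, 8 plasma-cell or 8 precursor genes reached 10% of thinned cells, whereas 5 of the 6 follicular genes did. Of the transitional genes 2 of 9 reached 10%, Vpreb3 (25.4%, against 0.0476% in granulocyte progenitors) and Cd24a (15.7% against 16.0%). Of the marginal-zone genes 2 of 8 did, Mzb1 (26.6% against 0.0714%) and Plac8 (33.6% against 96.5%). For Cd24a and Plac8 the share in granulocyte progenitors may be their own expression, so it cannot stand for free RNA. Vpreb3 had UMIs in 25.7% to 80% of the mature B cells of each of the 7 libraries. Of class-switched heavy chains Ighg1 and Ighe were at 0 and Ighg2b, Ighg2c and Ighg3 were found in 0.730%, 0.365% and 1.28% of cells. Of 13 T, NK and innate lymphoid genes 7 had no UMI, Cd3e among them. Proliferation genes were low: none of 16 S-phase genes, and of 16 G2 and M genes only Hmgb2, reached 10% of thinned cells.

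**Figure D2:**
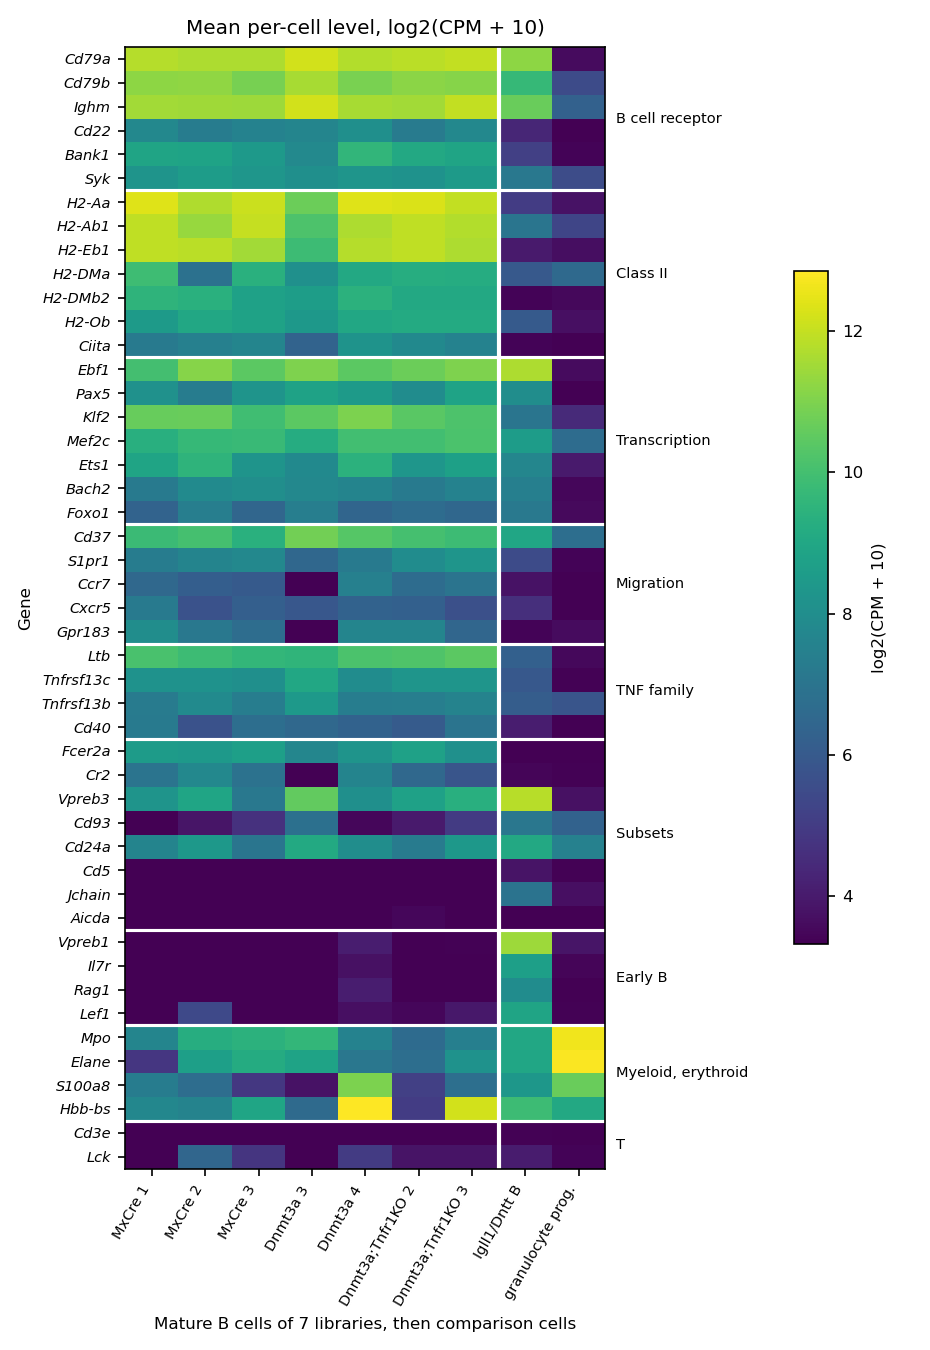
Mean per-cell level, as log2(CPM + 10), of genes grouped by role in the mature B cells of 7 libraries (left columns) and, right of the white line, in B-lineage precursors and granulocyte progenitors. Class II genes are high in the mature B cells and low in both comparison columns, and Vpreb1, Il7r and Rag1 show the reverse against the precursors. Dnmt3a mouse 3 stands apart by low H2-Aa (1644 CPM) and high Vpreb3 (1489 CPM).

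The mature B cells of Dnmt3a mouse 3 stood apart in class II and transitional genes, which the rule did not use apart from Cd74. These genes were picked after their values were seen, and no test was made. H2-Aa was at 1644 CPM in its 20 cells and between 3328 and 5324 CPM in the other 6 libraries, and H2-Eb1 at 922.5 CPM against 2896 to 3918. It was the lowest of the 7 libraries in 7 of 10 class II genes. Vpreb3, a chaperone of immature and transitional B cells, was at 1489 CPM against 130 to 634, Cd93, the marker of transitional B cells, at 106 CPM against 0 to 21.8, and Cd24a at 536 CPM against 121 to 331. Of 8 detected transitional genes 5 were highest in this mouse. The share of all genes in which this mouse was highest or lowest was not counted, so these list counts have no background to be read against. Cr2, Ccr7, Gpr183 and Ccr6 had a UMI in 0 of the 20 cells of this mouse, which allows up to 15% of cells. In the other 6 libraries they were found in 6.67% to 44.2% of cells. Fcer2a was in 20% of its cells against 33.3% to 73.3%, and its median Ighm per Ighd was 11 against 2.5 to 4. Of its 20 cells 15 had a single Ighd UMI, and 40 further cells of this mouse met the rule in all but Ighd, so that its members lie close to the limit of the rule. Whether they are at an earlier stage than the other members was not tested. Leaving out its 4 cells of more than 10000 UMIs kept the order, with H2-Aa at 2027 CPM against 3600 to 5682 and Vpreb3 at 1820 against 159 to 658. Progenitor genes were also highest of the 7 libraries in this mouse. The summed level was 380 CPM against 30.2 to 157 for 10 stem and progenitor genes, 1320 against 380 to 814 for 16 S-phase genes, 114 against 0 to 40.0 for 8 B-precursor genes and 3382 against 657 to 3326 for 9 granulocyte progenitor genes. Without the deep cells the first 3 remained highest there, at 183, 727 and 117 CPM, and the granulocyte progenitor sum (1066 CPM) was below that of MxCre mouse 2 (1137 CPM). Cd93 stood at 70.2 CPM and Cd24a at 172 CPM in granulocyte progenitors. The part of progenitor transcripts in the levels of Cd93 and Cd24a was not tested.

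Light chains divided the cells. A mouse B cell makes either the kappa chain (Igkc) or a lambda chain (Iglc1, Iglc2 or Iglc3). Lambda UMIs outnumbered kappa UMIs in 137 of 548 cells (25%). The lambda share was under 50% in 409 cells, 50% to under 80% in 45, and at least 80% in 94. Cells with at least 80% lambda had on average 28.4 UMIs of Iglc1 and 1.90 of Igkc, and cells under 50% had 1.36 of Iglc1 and 33.6 of Igkc. Iglc2 and Iglc3 did not separate in that way, since 92.9% and 92.7% of the cells under 50% lambda also had UMIs of them, at averages of 4.32 and 3.55. These constant-region genes are near-identical in sequence, so the split of reads between Iglc2 and Iglc3 is uncertain. Both are counted as lambda here, so the lambda shares and the 137 cells can overstate the use of lambda chains. No Igkc UMI was found in 64 cells.

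Cells with more lambda than kappa made up 3 of 15, 2 of 12 and 10 of 35 in the MxCre mice. They were 8 of 20 in Dnmt3a mouse 3 and 13 of 86 in mouse 4, and 72 of 284 and 25 of 73 in Dnmt3a;Tnfr1KO mice 2 and 3. Lambda took 48.5% and 25.8% of light-chain UMIs in the former group and 37.5% and 57.0% in the latter. These shares include the Iglc2 and Iglc3 UMIs that cells rich in kappa also held. The groups overlapped, and the difference of 10.1 percentage points (47.3% ± 13.8 against 37.2% ± 16.1, SD, n = 2 each) had an exact permutation p of 0.667, where 2 against 2 mice cannot go below 0.333.

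**Figure D3:**
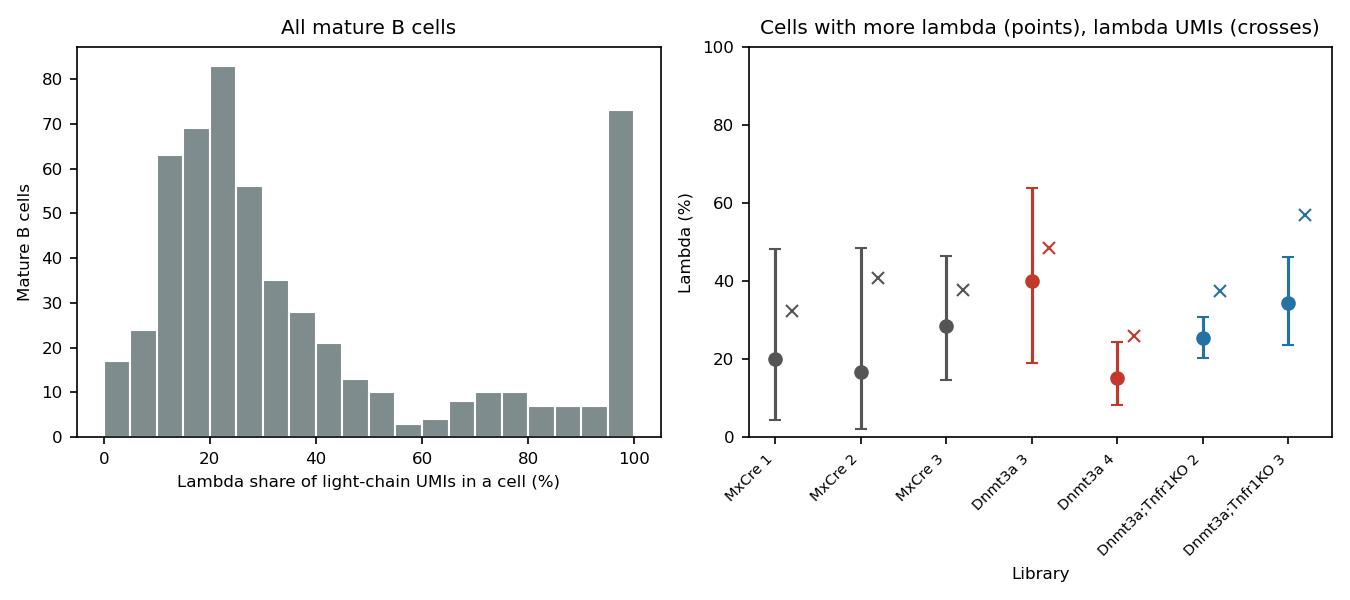
Left, number of mature B cells by the lambda share of their light-chain UMIs. Right, percent of cells with more lambda than kappa UMIs (points, exact 95% binomial interval) and percent of light-chain UMIs that are lambda (crosses) in the 7 libraries with at least 10 cells. Most cells lie under 50% lambda and 94 lie at 80% or more; the intervals of the libraries overlap.

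Set against their precursors, mature B cells were the minority in all 4 Dnmt3a mice and the majority in all 3 MxCre mice. Precursors numbered 52, 6, 80 and 1980 in Dnmt3a mice 1 to 4, against 2, 1 and 10 in MxCre, 6, 22 and 6 in Dnmt3a;Tnfr1KO and 0, 1, 3 and 7 in Dnmt3a;Tnfr2KO. The log2 ratio of mature B cells to precursors, with 1 cell added to each, was -2.56, -1.22, -1.95 and -4.51 in the Dnmt3a mice and 2.42, 2.70 and 1.71 in the MxCre mice. In Dnmt3a;Tnfr1KO it was 0.00, 3.63 and 3.40. In Dnmt3a;Tnfr2KO, with at most 7 cells on either side, it was 2, 1.32, -2 and -3. The Dnmt3a values overlapped neither MxCre nor Dnmt3a;Tnfr1KO.

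The mean ratio was -2.56 ± 1.41 (SD, n = 4) in Dnmt3a, 2.28 ± 0.51 (SD, n = 3) in MxCre and 2.34 ± 2.03 (SD, n = 3) in Dnmt3a;Tnfr1KO. The difference of Dnmt3a from MxCre was -4.83 and that of Dnmt3a;Tnfr1KO from Dnmt3a 4.90. Both had an exact two-sided permutation p of 0.0286, the smallest possible, and 0.0857 after Benjamini-Hochberg adjustment over 6 comparisons. The other 4 had exact permutation p of 0.171 to 1.00. Without Dnmt3a mouse 4 both differences kept their direction, at -4.19 and 4.25, and without Dnmt3a mouse 1 they were -4.83 and 4.90. Fewer mature B cells and more precursors cannot be told apart in this ratio. Mature B cells are normally outside the sort, and how far the purity of the sort takes part in this ratio was not tested. Shares of mature B cells alone did not separate Dnmt3a from MxCre, whereas precursor shares were 2.66%, 0.218%, 1.39% and 34.9% in Dnmt3a and 0.0324%, 0.0348% and 0.217% in MxCre.

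**Figure D4:**
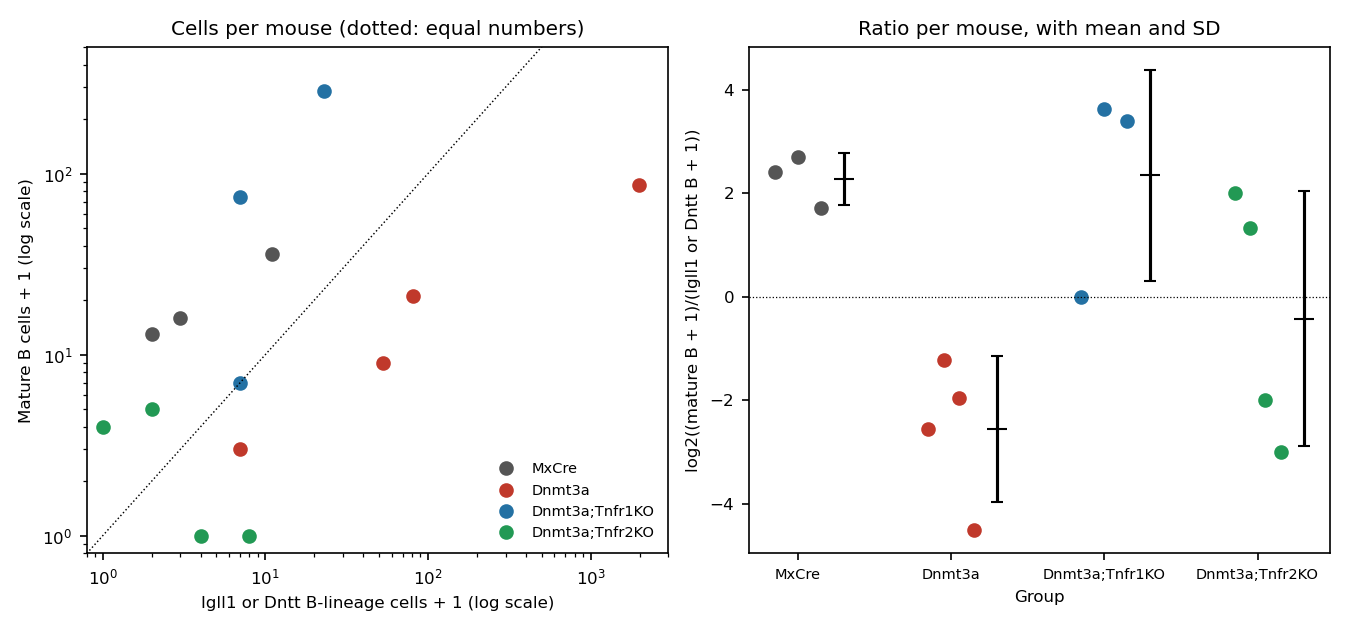
Left, mature B cells against Igll1 or Dntt B-lineage precursors in each mouse, both with 1 cell added and on log scales; the dotted line marks equal numbers. Right, the log2 ratio per mouse with the mean and SD of each group. All 4 Dnmt3a mice lie below 0 (-1.22 to -4.51) and all 3 MxCre mice above it (1.71 to 2.70).

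Expression within mature B cells could be tested between 2 groups at 20 cells a mouse, Dnmt3a;Tnfr1KO (mice 2 and 3) and Dnmt3a (mice 3 and 4). The 5 genes of the rule were left out of the test. Of 4644 genes edgeR's quasi-likelihood test on summed UMIs called 0 (0%) at a Benjamini-Hochberg adjusted p under 0.05, with 133 genes at an unadjusted p under 0.05, and DESeq2 called 10. The smallest adjusted p by edgeR was 0.0947, for Rps29, a small-subunit ribosomal protein gene. In simulated sums of this design the test recovered 21.0% of genes changed 4-fold and 71.0% of those changed 8-fold. The simulation gave every gene the same assumed spread, which was not estimated from these libraries.

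By lists, the median log2 fold change was 0.51 over the 10 class II genes (9 above 0), 0.10 over 18 receptor signalling genes (11 above 0), 0.14 over 19 transcription factors (11 above 0), 0.22 over 13 migration genes (8 above 0) and 0.20 over 5 genes of the tumour necrosis factor family (5 above 0). Over all genes tested it was -0.02, and 0 genes of any list were called. Without the deep cells (the 10-cell fit described below) several of these medians turned: receptor signalling had -0.09 (6 of 13 above 0), transcription factors -0.28 (3 of 15), migration -0.05 (3 of 6) and the tumour necrosis factor family -0.08 (1 of 3), against -0.06 over all genes, and class II had 0.21 (6 of 10). H2-Aa, H2-Eb1 and H2-Ab1 had 0.57 (SE 0.72), 0.80 (SE 0.73) and 0.87 (SE 0.69), each with an adjusted p of 0.999 by the same edgeR test, and the low class II levels of Dnmt3a mouse 3 enter these values. Over 7 NF-kB target genes the median was -0.15 (1 above 0) and over 16 immediate early genes -0.23 (5 above 0). It was -0.80 over 13 S-phase genes (0 above 0), -0.49 over 4 stem and progenitor genes (0 above 0) and 0.43 over 14 G2 and M genes (9 above 0). The high S-phase and progenitor sums of Dnmt3a mouse 3 enter these values. Leaving out Dnmt3a mouse 3, Dnmt3a mouse 4, Dnmt3a;Tnfr1KO mouse 2 or Dnmt3a;Tnfr1KO mouse 3 gave 107, 336, 12 and 26 genes called, with the lone remaining mouse of a group assumed to vary like the other group. Tnfrsf1a and Tnfrsf1b did not pass the filter on low counts in this fit.

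With a minimum of 10 cells a mouse, MxCre entered and all 3 groups could be compared over 4259 genes. Against MxCre, Dnmt3a had 3 genes called (0.0704%), all lower: Rps29 (log2 fold change -1.61, adjusted p by edgeR 0.00694), Rps28 (-1.30, adjusted p 0.0454) and the histone gene Hist1h2ap (-4.59, adjusted p 0.00694). In Dnmt3a;Tnfr1KO against Dnmt3a 4 genes (0.0939%) were called, all higher, namely these 3 and Rpl38 (1.64, edgeR adjusted p 0.0296). In Dnmt3a;Tnfr1KO against MxCre 0 genes (0%) were called by edgeR, with 258 at an unadjusted p under 0.05. Of the targeted genes only Tnfrsf1a was tested here, with log2 fold changes of -0.98 (SE 1.03) in Dnmt3a;Tnfr1KO against Dnmt3a, -0.76 (SE 1.04) against MxCre, and 0.22 (SE 1.07) in Dnmt3a against MxCre, none called. The first 2 comparisons share the Dnmt3a mice and the last 2 the Dnmt3a;Tnfr1KO mice.

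With the deep cells left out, an alternative chosen after seeing the data, 937 genes could be tested in the same 7 libraries. Dnmt3a;Tnfr1KO against Dnmt3a then had 18 genes called (1.92%) by edgeR, 14 higher and 4 lower. The higher ones held 10 ribosomal protein genes by symbol, among them Rps29 (log2 fold change 1.91, adjusted p 0.00419), Rps28 (1.545, 0.00307), Rps27 (1.75, 0.00690), Rpl38 (1.502, 0.00419) and Rpl35 (1.32, 0.00757). The lower ones were the immediate early genes Fos (-2.30, 0.0121), Fosb (-1.497, 0.01725) and Jun (-1.20, 0.0414), and Gng10 (-1.51, 0.0209). Against MxCre, 9 genes (0.961%) were lower in Dnmt3a: Rps27, Rps28, Rps29, Rpl27, Rpl35, Rpl37, Rpl38, Gm10076 and AY036118. All of them were also among the 14 higher genes above, and the 2 comparisons share the Dnmt3a mice. Of Dnmt3a;Tnfr1KO against MxCre 0 (0%) were called, with 39 at an unadjusted p under 0.05. No class II, receptor signalling or migration gene was called.

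The 10 ribosomal protein genes called higher in Dnmt3a;Tnfr1KO than in Dnmt3a rest on mice 2 and 3 against mice 3 and 4. In granulocyte progenitors of these 4 libraries they were also higher, with log2 ratios of 0.78 (Rpl27) to 1.71 (Rps29). Rps29 was at 11613, 9187 and 9550 CPM in the mature B cells of MxCre, at 2447 and 3999.5 in Dnmt3a mice 3 and 4, and at 12154 and 11104 in Dnmt3a;Tnfr1KO mice 2 and 3. In granulocyte progenitors of these libraries it was at 9443, 8322 and 7337, at 2725 and 3034, and at 9166 and 9708 CPM. The log2 ratio of Dnmt3a;Tnfr1KO to Dnmt3a over these 4 libraries was 1.85 in mature B cells and 1.71 in granulocyte progenitors for Rps29, 1.49 and 1.48 for Rps28, 1.45 and 1.45 for Rpl38, and 1.74 and 1.39 for Rps27. Rplp0, another ribosomal protein gene, had -0.19 and -0.08. The labels give no date or batch of library preparation, so that genotype and preparation cannot be told apart for these genes. Low Rps29 in granulocyte progenitors also marked Dnmt3a mice 1 and 2 (3523 and 4032 CPM) and Dnmt3a;Tnfr2KO mouse 4 (3335 CPM), and mouse 3 of that group was at 5328 CPM. In mature B cells of libraries that the test left out, Rps29 was at 3259 and 3762 CPM in Dnmt3a mice 1 and 2. It was at 6028 CPM in Dnmt3a;Tnfr1KO mouse 1. Over all mice of Dnmt3a and Dnmt3a;Tnfr1KO, mature B cells overlapped for Rpl27 (1601 to 2720 and 2274.5 to 3255 CPM) and Rpl37a (2519 to 7125 and 5791 to 7972.5 CPM). The rest of the 10 genes did not overlap.

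The 3 immediate early genes called were lower in Dnmt3a;Tnfr1KO mice 2 and 3 than in Dnmt3a mice 3 and 4, the mice that entered the test. Of the list of 19 such genes 11 were tested without the deep cells, 3 of them above 0, with a median of -0.51. Over the 4 libraries the log2 ratio of Fos was -2.42 in mature B cells and -0.80 in granulocyte progenitors, that of Fosb -1.59 and -1.10, and that of Jun -1.33 and -1.48. Fos was at 638 and 644 CPM in the Dnmt3a mice, 134 and 104.9 in the Dnmt3a;Tnfr1KO mice and 367, 313 and 60.2 in MxCre. In the libraries of under 10 cells, which the test left out, Fos was at 105.7 and 260 CPM in Dnmt3a mice 1 and 2 and at 378 in Dnmt3a;Tnfr1KO mouse 1, so that over all their mice these groups overlapped. Jun and Fosb were highest of all libraries in the 6 cells of Dnmt3a;Tnfr1KO mouse 1, at 874 and 781 CPM. In granulocyte progenitors Fos was at 35.5 to 78.6 CPM over the 4 Dnmt3a mice and 38.4 to 89.1 over the 3 Dnmt3a;Tnfr1KO mice, and Jun at 68.9 to 177 and 46.5 to 183, so that these groups overlapped there too. Fosb did not overlap there, at 29.1 to 43.65 CPM over the Dnmt3a mice and 13.3 to 27.9 over the Dnmt3a;Tnfr1KO mice. A difference between the cell types was not tested.

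**Figure D5:**
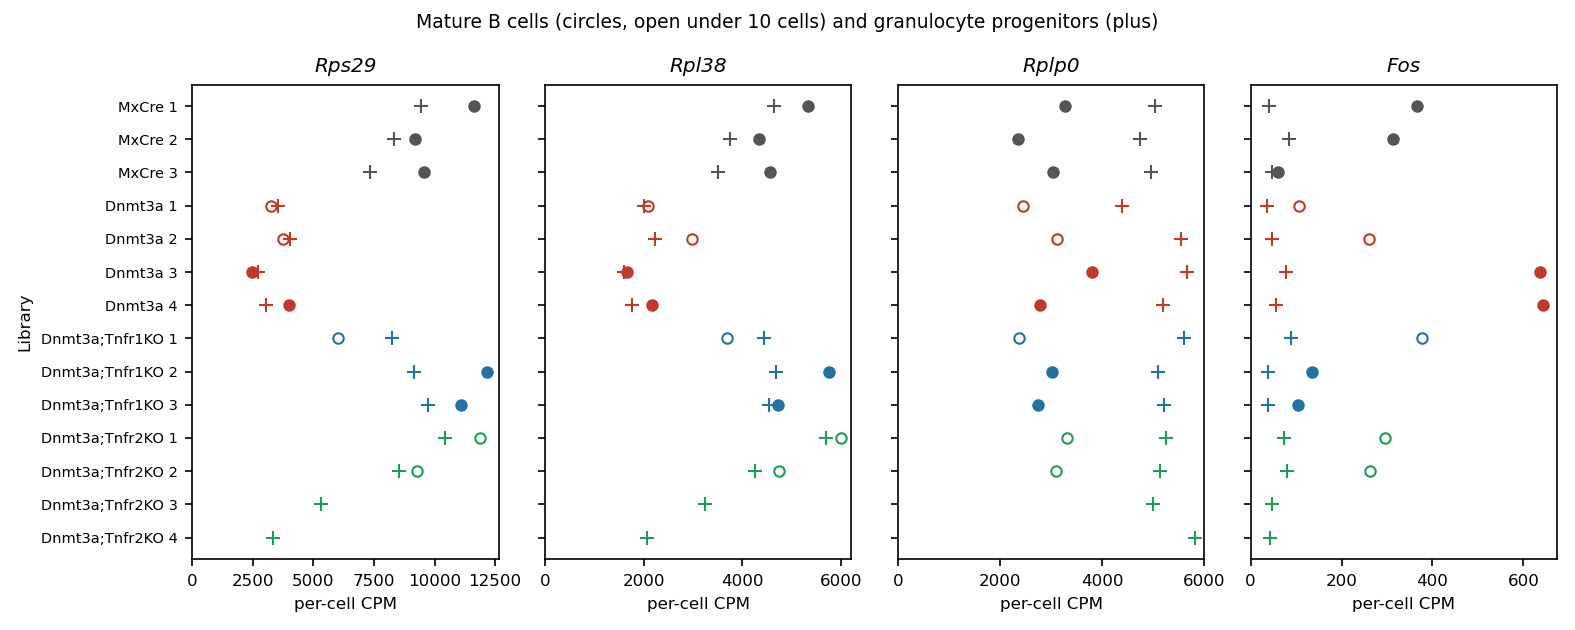
Per-cell CPM of Rps29, Rpl38, Rplp0 and Fos in mature B cells (circles, open where a library held fewer than 10) and in granulocyte progenitors (plus signs) of each library; axes start at 0. For Rps29 both cell types are low in the 4 Dnmt3a libraries, at 3999.5 CPM or less in the mature B cells; for Rplp0 the groups overlap.

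Transcripts of other lineages were uneven over the libraries. Hbb-bs, a haemoglobin gene, averaged 7331 CPM in the mature B cells of Dnmt3a mouse 4 and 4657 in Dnmt3a;Tnfr1KO mouse 3, against 22.6 to 477 in the other 5 libraries. S100a8 and S100a9, neutrophil genes, were at 2011 and 1983 CPM in Dnmt3a mouse 4 and at most 149 and 65.7 in the other 6 of the 7 libraries. In the 8 cells of Dnmt3a mouse 1 they were at 267 and 251 CPM. Without the deep cells Hbb-bs was at 665 CPM in Dnmt3a mouse 4 and 4855 in Dnmt3a;Tnfr1KO mouse 3, and S100a8 at 205 CPM in the former. Hbb-bs had a UMI in 78 of 86 and 31 of 73 cells of these mice. Mpo averaged 90.0 to 788 CPM over the 7 libraries, against 6371 in granulocyte progenitors. The part of free RNA or of doublets in these levels was not tested.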

How the data were processed

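Sorted marrow cells of 14 mice were profiled by 10x 3' single-cell RNA sequencing. The deposited files hold raw UMI counts per gene and cell, which the authors made with bcl2fastq 2.20.0.422 and Cell Ranger 6.0.0 on mm10 (GRCm38), per the submitters' processing notes. The files list 32285 genes, and depth per library is given with the results.

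Counts were read as deposited, in Python 3.11.15, and cells were filtered and chosen as described. The members and gene lists were chosen with earlier results of these data known. Doublets were scored by a purpose-written caller (simulated pairs, 2000 variable genes, 30 components, 50 neighbours, 0.8% per 1000 barcodes), which called 2.43% to 7.78% of kept cells per library. Shares of cells with a UMI were compared after thinning each cell to 1000 UMIs, with up to 300 granulocyte progenitors a library. No mature B cell fell below that depth.

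UMI counts were summed per mouse with at least 20 mature B cells and tested with edgeR 4.0.16 (R 4.3.3) quasi-likelihood fits, TMM scaling and Benjamini-Hochberg adjustment over all genes tested, after a filter on low counts. Shares and ratios were compared over mice by exact two-sided permutation tests. The edgeR steps were tested on simulated data. Named genes were those called (up to 10 in each direction, at 50 CPM or more, groups not overlapping), called or highest members of each list, the targeted genes, and the 25 genes highest against other cells; values for other list members and for single libraries were picked after they were seen. Alternatives were DESeq2 1.42.0, other scaling, filters, cell minimums and rules for members, thinning to 2000 UMIs, a replicate block, and leaving out each mouse. Other genomes, sequences and raw reads were not used here. Results for some genes of the lists are not reported here.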

Additional observations from a re-analysis of the deposited data

Results flagged for a closer look

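In Dnmt3a mouse 4, B-lineage precursors with Igll1 or Dntt made up 34.9% of kept cells, and in the other 3 Dnmt3a mice 0.218% to 2.66%. This mouse lay so far from the rest of its group that its gap passed Dixon's limit of 0.829 for 4 samples. T cells made up 1.60% of kept cells in the same mouse and 0% to 0.0871% in the other 3, which passed the same limit. Its share of mature B cells, 1.51%, did not. Of 20 groups of values tested in this way 2 passed, and chance alone passes about 1 in 20. The ratio of mature B cells to precursors is given with the results both with and without this mouse.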

How the results depend on the processing

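The lower share of mature B cells in Dnmt3a;Tnfr2KO kept its direction against each other group under each alternative run, none of which relaxed the Ighd limit. It passed 0.05 only with the edgeR test of cell numbers (log2 fold changes -4.36, -6.86 and -4.04 against Dnmt3a, Dnmt3a;Tnfr1KO and MxCre). The share of Dnmt3a against MxCre, not called, changed sign without MxCre mouse 1 (-0.00194) and without Dnmt3a mouse 4 (-0.196), and ran from -0.196 to 0.284 over left-out mice. A replicate block gave the same -0.196, because it leaves out Dnmt3a mouse 4, which has no same-numbered MxCre mouse. The uncalled log2 ratio of Dnmt3a;Tnfr1KO against MxCre changed sign after thinning to 2000 UMIs (-0.45) and without MxCre mouse 3 (-0.21) or Dnmt3a;Tnfr1KO mouse 2 (-0.57) or 3 (-0.46), and ran from -0.57 to 1.24. The lambda share difference was -1.27 without Dnmt3a mouse 4 and ran from -1.27 to 21.5. Genes called in Dnmt3a;Tnfr1KO against Dnmt3a numbered 0 by edgeR, 10 with DESeq2, 45 with no filter on low counts, 4 at 10 cells a mouse, 1 with the stricter rule for members, 18 without cells over 10000 UMIs at 10 cells a mouse, and 12 to 336 with a mouse left out; they numbered 0 with called doublets out, without cells holding Kit or Mpo, with 20 cells drawn a mouse, and with the other scaling. The causes were not tested. The limit of 10000 UMIs was chosen after seeing the data.

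Replicate numbers did not pair the mice: of 19 same-numbered pairs 8 had a correlation of deviations over 0.1, with a range of -0.47 to 0.45 over 7499 genes. With the replicate block, Dnmt3a;Tnfr2KO shares differed by -0.559, -3.33 and -0.437 points, and the ratio differences of Dnmt3a from MxCre and of Dnmt3a;Tnfr1KO from Dnmt3a were -4.19 and 4.25. The block changes such mean differences only by leaving out mice without a same-numbered partner. Thus -4.19 and 4.25 are the values without Dnmt3a mouse 4, -0.559 is the unpaired value, and none of these is a separate check. For expression at 20 cells a mouse no paired analysis was possible because only 1 replicate number was shared. At 10 cells a mouse a replicate block, added after seeing the data, left 1 residual degree of freedom and called 140 genes in Dnmt3a;Tnfr1KO against Dnmt3a, 26 in Dnmt3a against MxCre and 113 in Dnmt3a;Tnfr1KO against MxCre, where the fit without it called 4, 3 and 0. A minimum of 50 cells was not run, since it leaves Dnmt3a with 1 library, and cell numbers were not fitted with edgeR for the ratio. Small cell numbers limit each of these values: 5 libraries held 2 to 8 mature B cells and 2 held 0.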
